A study of Mus musculus with 5 samples.

Results

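The complement genes C1qa, C1qb, C1qc, C3, C3ar1, C5ar1, Cfb, Cfp and Hc, 9 of the 42454 deposited features, were followed by their exact symbols in 5 scRNA-seq libraries of mouse lung. The libraries came from C57BL/6J mice that were placed in room air or in hyperoxia (>95% O2) as newborns less than 12 h old, stayed there for 3 days and then recovered in room air. Unsorted lung cells were captured from air-exposed and from hyperoxia-exposed mice at postnatal day 7 (pnd7) and again at pnd60, and the fifth library held C12FDG-positive cells sorted from the pooled lungs of 3 hyperoxia-exposed mice at pnd7. C12FDG is a fluorescent substrate of β-galactosidase, an enzyme activity used to mark senescent cells, and no C12FDG-negative or air-exposed sorted library was analysed here. Each condition had 1 library, and the number of mice behind the unsorted libraries is not given in the sources used here. No spread between animals can therefore be given, and no test or p-value is reported. The intervals given are 95% intervals and include no error other than that of counting.

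Complement is a set of proteins that tag particles for uptake, recruit leukocytes and lyse membranes. C1q, built from the A, B and C chains that C1qa, C1qb and C1qc encode, binds immune complexes and dying cells and starts the classical route; unlike most complement proteins, which come from the liver, it is made mainly by tissue macrophages. C3 is the protein on which all routes converge, Cfb encodes factor B, the protease of the alternative route's convertase, and Cfp encodes properdin, which stabilises that convertase. Hc encodes C5, whose cleavage starts the terminal pathway. C3ar1 and C5ar1 encode the receptors for the small fragments released from C3 and C5. In the lung, type II cells and macrophages are known sources of several of these proteins.

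After filtering, the libraries held 2308 air and 1246 hyperoxia cells at pnd7, 493 sorted cells, and 4397 air and 4756 hyperoxia cells at pnd60, with 7880365 to 16648251 unique molecular identifier (UMI) counts per library. The median depth ran from 2168 counts per cell in air at pnd60 to 15529 in the sorted library, and any pair of libraries shared at most 4 cell barcodes. Hemoglobin genes took 3.38% and 2.22% of counts in the unsorted pnd7 libraries and 0.00131% in the sorted library. Levels are given as CPM, a gene's counts in all cells of 1 library or 1 cell class, scaled to the total of those cells. Cell classes were built without any complement gene and are named "X-like" from marker genes. The count protocol reads transcript ends, so levels were not compared between genes.

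The C1q genes lie side by side on the minus strand of chromosome 4, in the order C1qb, C1qc, C1qa, within chr4:136880126-136898844 of GRCm38 (mm10), a span of 18719 bases that holds no other gene. The other genes also lie on the minus strand: C3 at chr17:57203967-57228136, Cfb at chr17:34856374-34862514, C3ar1 at chr6:122847140-122856157, C5ar1 at chr7:16246743-16259540, Cfp at chrX:20925454-20931555 and Hc at chr2:34983329-35068506. Promoter sequences were available from RefSeq (GRCm38.p6) for 7 of the 9 genes. The 150 bases before the start of C1qb (chr4:136886201-136886350) and of C3 (chr17:57228137-57228286), both read on the minus strand, are shown because C1qb and C3 lay in different source cells, and capitals mark a match to GAGGAA, the core bound by the myeloid factor PU.1, or to TTGCNNAA, a form of the C/EBP core.

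C1qb: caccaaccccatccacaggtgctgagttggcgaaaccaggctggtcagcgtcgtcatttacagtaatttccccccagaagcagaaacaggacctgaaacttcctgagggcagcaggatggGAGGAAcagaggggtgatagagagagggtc

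C3: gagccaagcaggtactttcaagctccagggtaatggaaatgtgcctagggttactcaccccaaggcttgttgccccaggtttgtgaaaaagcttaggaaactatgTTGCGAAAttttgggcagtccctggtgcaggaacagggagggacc

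The GAGGAA match in C1qb began 30 bases before the start, and the TTGCNNAA match in C3 began 45 bases before it, each in the reading direction shown. Searched on both strands, GAGGAA was in 14.5% and TTGCNNAA in 5.46% of 32851 RefSeq windows of 150 bases. Each motif was in 1 of the 7 windows of these genes. Neither match was examined for binding.

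C1q was carried by very few cells. Cells with at least 10 C1q counts (C1qa, C1qb and C1qc summed) numbered 24 of 2308 in air at pnd7, 19 of 1246 in hyperoxia at pnd7, 52 of 493 in the sorted library, 69 of 4397 in air at pnd60 and 57 of 4756 in hyperoxia at pnd60. These cells held 97.4%, 99.3%, 97.7%, 97.5% and 97.4% of all C1q counts of their libraries. In the pnd7 unsorted libraries, 50% of the C1q counts lay in 7 cells in air and in 6 cells in hyperoxia. The same share was reached by 17 sorted cells, and by 21 and 18 cells at pnd60. A single cell held up to 326 C1q counts in air and 335 in hyperoxia at pnd7, and up to 388 in the sorted library. Each unsorted cell with at least 10 C1q counts had counts of all 3 genes, as did 50 of the 52 sorted cells.

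**Figure D1:**
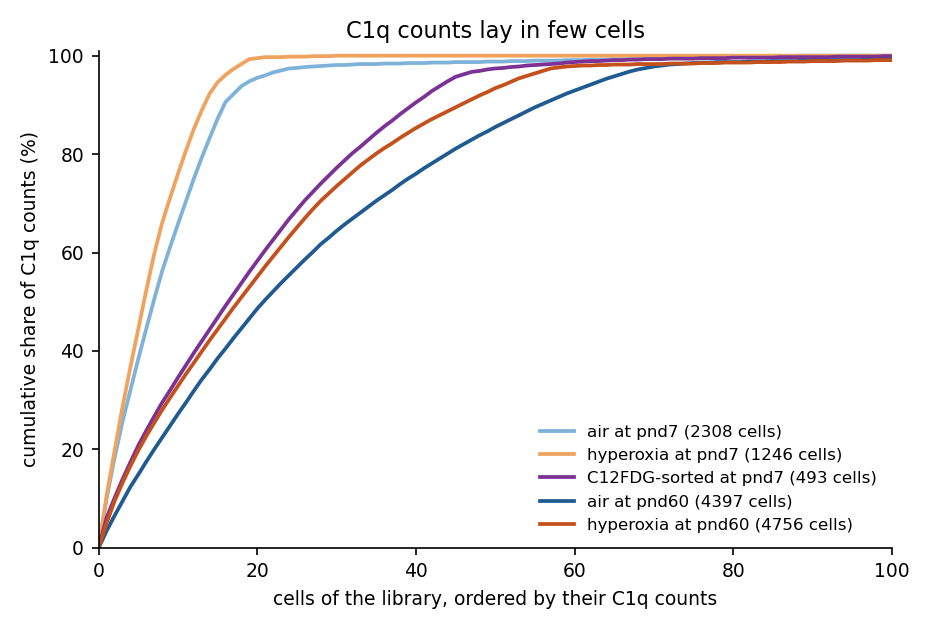
Cumulative share of C1q counts (C1qa, C1qb and C1qc summed, in %) against cells ordered from the highest to the lowest C1q count, 1 line per library. In each library the first 19 to 69 cells held at least 97.4% of the counts.

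Most of these cells were interstitial macrophage-like. This class was named from 13 markers that include Apoe, Ms4a7 and Stab1, of which 11 had counts in every library and Pf4 and Trem2 were at 0. It held 14, 17, 45, 67 and 57 cells in the libraries in the order above, and all 14, all 17, 44, 64 and 56 of them had at least 10 C1q counts. C1q reached 15062 CPM in the interstitial macrophage-like cells of air and 13303 CPM in those of hyperoxia at pnd7. It was 8694 CPM in the sorted library, 14392 CPM in air and 14651 CPM in hyperoxia at pnd60. In the alveolar macrophage-like class, C1q was 260 and 182 CPM at pnd7, 109 CPM in the sorted library, and 26.9 and 2.49 CPM at pnd60. Even this low level rested on 3, 1, 8, 1 and 0 cells with at least 10 counts. After each cell was thinned to 1000 counts, 98.5% and 98.2% of interstitial macrophage-like cells at pnd60 had a C1q count, at unthinned median depths of 3407 and 4269 counts per cell. B cell-like cells, which should lack C1q, had one in 0.655% and 0.720% of thinned cells at median depths of 1589 and 1684.5, and alveolar macrophage-like cells in 1.06% and 0%. Without thinning the shares were 100% and 98.2%, 0.816% and 1.19%, and 3.19% and 2.06%.

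Macrophage-like cells of both classes together held 58.5% of C1q counts in air at pnd7, 88.8% in hyperoxia at pnd7, 100% in the sorted library, and 94.9% and 95.2% at pnd60. The low share in air at pnd7 came from 7 cells with at least 10 C1q counts. Of these, 3 monocyte-like cells held 746 counts, 2 T or NK cell-like cells held 279, 1 dendritic cell-like cell held 196 and 1 erythroid-like cell held 51. In hyperoxia at pnd7, 1 monocyte-like cell held 335 counts. When each cell was classed by its own markers instead of by cluster, the macrophage-like share was 90.7% in air and 86.0% in hyperoxia at pnd7.

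C1qa took a larger share of C1q counts at pnd60 than at pnd7. It made up 36.4% (34.7 to 38.0) and 35.6% (33.9 to 37.3) of C1q counts in air and hyperoxia at pnd7, and 40.4% (38.8 to 41.9) and 41.0% (39.4 to 42.6) at pnd60. C1qc went the other way, from 28.5% and 28.4% at pnd7 to 25.0% and 24.1% at pnd60. C1qb stayed between 34.6% and 36.0% in these 4 libraries. The sorted library, at 36.2% C1qa and 26.4% C1qc, lay with the pnd7 libraries in C1qa and between the ages in C1qc. Within interstitial macrophage-like cells alone, C1qa was 37.9% (35.5 to 40.3) and 35.1% (33.3 to 36.9) at pnd7 and 40.9% (39.3 to 42.5) and 41.5% (39.9 to 43.2) at pnd60, so that in air the intervals of the ages overlapped.

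The receptors and properdin were spread more widely over myeloid cells. C3ar1 had the same leading class as C1q: interstitial macrophage-like cells held 35% and 61.2% of its counts at pnd7, 84.1% in the sorted library, and 78.6% and 86.9% at pnd60. Its level in this class ranged from 429 CPM in hyperoxia at pnd7 to 721 CPM in the sorted library. At pnd60, 11 mast cell or basophil-like cells per library also had C3ar1, at 561 CPM in air and 357 CPM in hyperoxia, from only 16 and 9 counts.

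C5ar1 was led by alveolar macrophage-like cells, which held 45.7% and 45.5% of its counts at pnd7, 63.8% in the sorted library, and 73.8% and 70.0% at pnd60. In the unsorted libraries its level per class was highest in neutrophil-like cells, at 363 (233 to 540) and 490 CPM (335 to 692) at pnd7 and 531 (370 to 738) and 673 CPM (529 to 844) at pnd60. The sorted library had no neutrophil-like cell. Interstitial macrophage-like cells lay between 317 and 393 CPM in all 5 libraries, a range that the neutrophil-like intervals of all but hyperoxia at pnd60 overlapped. Alveolar macrophage-like cells had 162 and 194 CPM at pnd7, 68.9 CPM in the sorted library, and 325 and 331 CPM at pnd60. In cells thinned to 1000 counts, 10.7% and 6.90% of alveolar macrophage-like cells had a C5ar1 count at pnd7, 9.16% in the sorted library, and 27.1% and 32.0% at pnd60. The sorted share lay between the unsorted pnd7 shares although its CPM was below both, so no order is read from the shares.

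Cfp was spread over several classes in the unsorted libraries. Alveolar macrophage-like cells held 27.9% and 33.5% of its counts at pnd7, monocyte-like cells 32.9% and 28.3%, and in the sorted library alveolar macrophage-like cells held 72.3%. Dendritic cell-like cells held 16.8% and 20.1% at pnd60, at 140 and 194 CPM in 95 and 102 cells, and 3.25% and 4.41% at pnd7, at 107 and 85.5 CPM in only 9 and 10 cells. Some single cells had many counts: 3 monocyte-like cells of the air library at pnd7 held 102 Cfp counts, and 4 interstitial macrophage-like cells of the sorted library held 173.

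Hc lay mostly in type II-like cells, the source of surfactant. Type II-like cells held 72.4% and 71.3% of its counts at pnd7 and 93.4% and 92.2% at pnd60, with 174 of 176, 145 of 146, 412 of 434 and 492 of 505 of them having an Hc count. In this class Hc was at 1431 CPM (1385 to 1478) in air and 1339 CPM (1294 to 1385) in hyperoxia at pnd7, and at 1994 CPM (1942 to 2048) and 2156 CPM (2104 to 2208) at pnd60. The type II-like cells of the ages lay in different clusters. Unnamed clusters held 6.98% of air and 21.5% of hyperoxia cells at pnd7, and 2.82% and 3.11% at pnd60. Cells of named classes held 93.1% and 81.3% of Hc counts at pnd7 and 97.6% and 94.8% at pnd60, so the type II-like shares also moved with the naming. At pnd7, Hc was at 441 CPM in type I-like cells of air and 276 CPM in those of hyperoxia, which also carried 85284 and 50954 CPM of type II markers against 15762 and 17972 CPM of their own. At pnd60, with 8023 and 5964 CPM of type II markers in type I-like cells, Hc was at 57.7 and 125 CPM there. The 817 erythroid-like cells of the air library at pnd7 held 521 counts, with an Hc count in 307 of them. This value sits beside 35.4% of air cells at pnd7 being erythroid-like against 3.77% in hyperoxia; the part of free RNA in these values was not tested. In the sorted library 8 type II-like cells held 172 of 315 Hc counts, 1 erythroid-like cell held 46, 1 interstitial macrophage-like cell held 39, and the 415 alveolar macrophage-like cells held 6. B cell-like cells at pnd60 had an Hc count in 0.408% and 1.11% of cells, against 94.9% and 97.4% of type II-like cells at median depths of 6397 and 6327 counts.

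In the unsorted libraries C3 had different main sources at pnd7 and at pnd60. Macrophage-like cells held 87.7% of C3 counts in the sorted library, where they were 93.3% of cells. Their C3 level there was 37.6 CPM, against 40.1 CPM over all sorted cells. At pnd7, 14 mesothelial-like cells held 73.5% of C3 counts in air, at 9532 CPM (9083 to 9998), and 7 held 46.1% in hyperoxia, at 3750 CPM (3423 to 4100). Mesothelial cells line the lung surface, and the class was named from 6 of 6 markers, Msln and Upk3b among them. The summed markers of this class were 12608 CPM in air and 5319 CPM in hyperoxia at pnd7, so they differed in the same direction as C3. The cells also carried 63395 and 101613 CPM of erythroid markers and 26137 and 30639 CPM of fibroblast markers, whose part in the C3 value was not tested. At pnd60 it had 3 and 5 cells with 12.2% and 7.34% of C3 counts, at 9904 CPM in air and 3505 CPM in hyperoxia, values that describe those few cells only. Fibroblast-like cells had 3.3 and 0.602 C3 CPM at pnd7, from 5 and 1 counts in 129 and 116 cells, and 544 and 498 CPM at pnd60, when they held 40.2% and 40.0% of C3 counts. Most fibroblast-like cells of the ages lay in different clusters. A cluster led by Dcn, Col14a1 and Col1a1 was present at both, and in it C3 had 0 counts in 13 air and 6 hyperoxia cells at pnd7 against 265 counts in 43 air cells and 311 counts in 43 hyperoxia cells at pnd60. With 3 counts set in place of 0, C3 was 54.5-fold higher in air and 45.1-fold higher after hyperoxia at pnd60 in that cluster, values that depend on this setting. The upper limits of C3 in it at pnd7 were 24.7 CPM in air and 31.8 CPM in hyperoxia. At pnd60 C3 was at 1096 CPM (968 to 1236) and 1165 CPM (1039 to 1302). The 1 sorted cell in the cluster held 21 C3 counts. Type II-like cells had 68.5 and 95.3 C3 CPM at pnd7 and 136 and 133 CPM at pnd60, and monocyte-like cells 245 and 287 CPM at pnd7 and 182 and 198 CPM at pnd60.

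**Figure D2:**
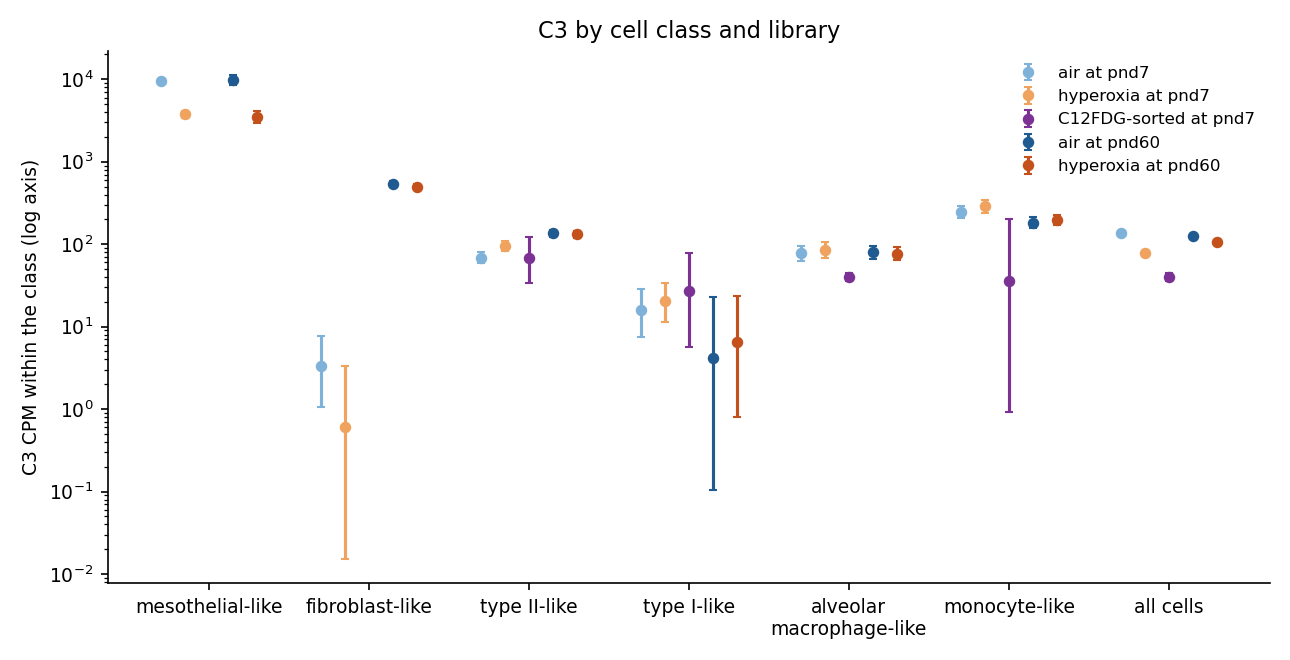
C3 level (CPM, log axis) within 6 cell classes and over all cells, 1 point per library with its 95% Poisson interval; classes with under 3 cells or 0 counts in a library are not drawn. Mesothelial-like cells were highest in each unsorted library, and fibroblast-like cells went from under 4 CPM at pnd7 to 544 and 498 CPM at pnd60.

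**Figure D3:**
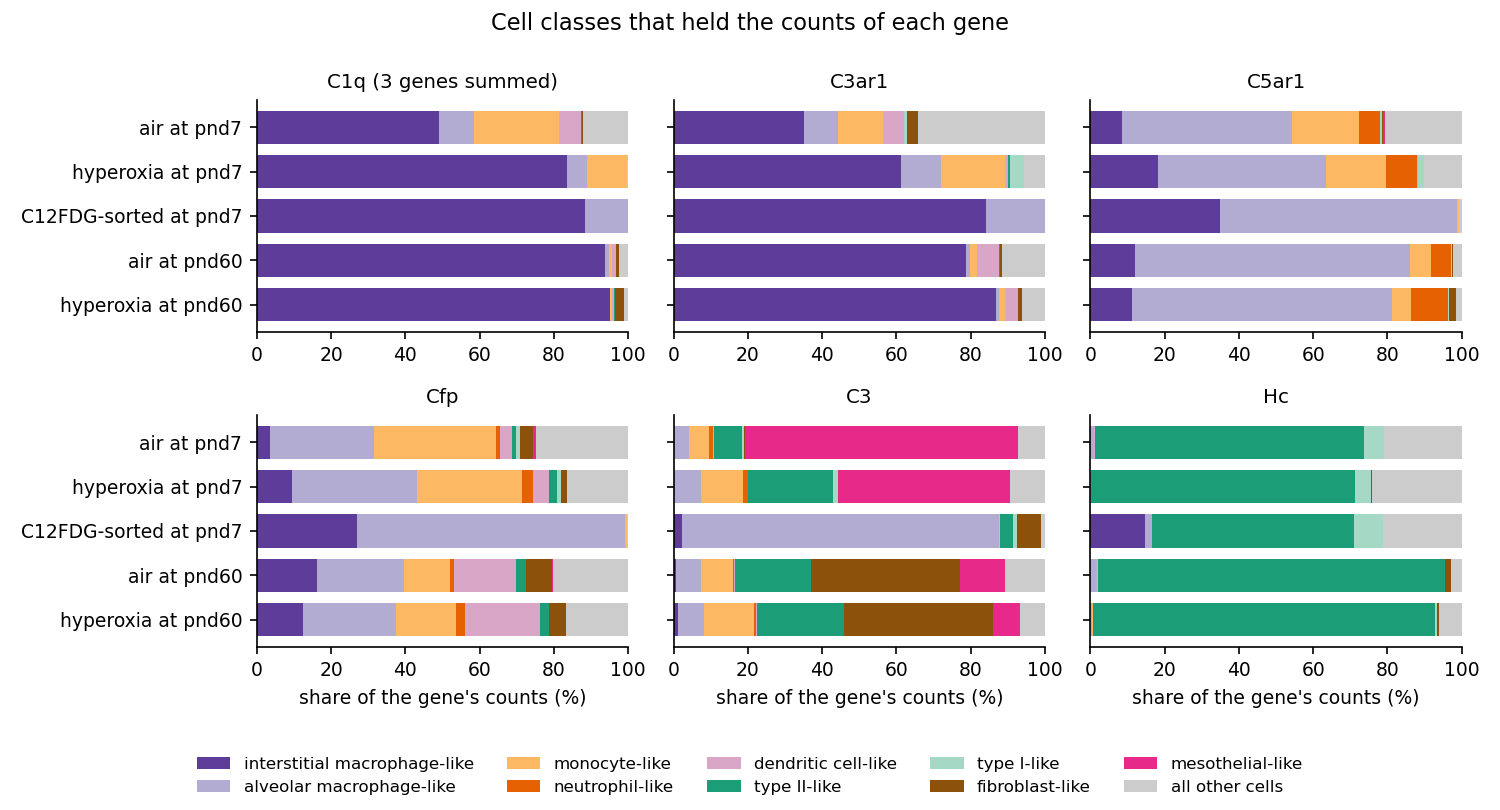
Share of the counts of C1q (3 genes summed) and of 5 single genes that lay in each cell class (%), 1 bar per library. Interstitial macrophage-like cells held the largest shown share of C1q and C3ar1 in each library, from 49.0% of C1q and 35% of C3ar1 in air at pnd7. Type II-like cells held that of Hc. For C3 it lay in mesothelial-like cells at pnd7 and fibroblast-like cells at pnd60 in the unsorted libraries. In the sorted library macrophage-like cells of both classes held 87.7% of C3 counts and were 93.3% of cells.

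Cfb had few counts in any library. It had 1, 2, 24, 2 and 11 counts in the libraries in the order above, at most 3.05 CPM (1.95 to 4.53) in the sorted library, where all 24 counts came from 23 alveolar macrophage-like cells. The other 3 features that carry numbered copies of the Cfb symbol had 0 counts. Cfb was under the minimum of 100 counts in every comparison, so 8 of the 9 genes entered the ratios. These 8 include the 3 C1q genes, whose counts lay in the same few cells. The medians and the counts of genes past 2-fold below take them as separate genes. Neither was recomputed with C1q taken once.

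Over all cells, the ratio of CPM was called higher or lower when it reached 2-fold, among genes with at least 100 counts over both libraries. Hyperoxia against air at pnd7 gave no call among the 8 genes, against 0.183% of 12591 genes higher and 0.802% lower. C1q was 196 CPM (189 to 203) in air and 232 CPM (224 to 240) in hyperoxia, a log2 ratio of 0.24 (0.17 to 0.32). Hc was 305 and 346 CPM, a log2 ratio of 0.18. Cfp was 27.8 and 20 CPM, a log2 ratio of -0.47 (-0.69 to -0.25). C3 had the greatest difference, 138 CPM in air and 77.2 CPM in hyperoxia, a log2 ratio of -0.84 (-0.94 to -0.73). Without the mesothelial-like cells C3 was 36.9 and 42.0 CPM, a log2 ratio of 0.19 (0.02 to 0.36), so its lower level in hyperoxia lay in those 14 and 7 cells. The median log2 ratio of the 8 genes was 0.20, against -0.02 over all genes.

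Interstitial macrophage-like cells were 1.36% (0.797 to 2.18) of hyperoxia cells and 0.607% (0.332 to 1.02) of air cells at pnd7. Without erythroid-like cells, which were far more frequent in air, they were 1.42% (0.828 to 2.26) and 0.939% (0.514 to 1.57). The intervals of the class shares overlapped. Cells of any class with at least 10 C1q counts were 1.52% of hyperoxia and 1.04% of air cells. These shares count the 47 hyperoxia and 817 air erythroid-like cells in the totals and were not recomputed without them, so no difference is read from them. Within interstitial macrophage-like cells the log2 ratio of C1q was -0.18 (-0.27 to -0.09). The 17 hyperoxia cells also carried 76064 CPM of erythroid markers against 2865 CPM in the 14 air cells, and their part in the ratio was not tested. In alveolar macrophage-like cells C5ar1 had a log2 ratio of 0.26 (-0.04 to 0.57). In type II-like cells C3 had a log2 ratio of 0.48 (0.19 to 0.76) and Hc of -0.10 (-0.16 to -0.03). Of the 146 hyperoxia type II-like cells, 3 with at least 10 C3 counts each held 37 of them. The C3 ratio was not recomputed without these cells.

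At pnd60, hyperoxia against air again gave no call among the 8 genes, against 0.271% of 12928 genes higher and 0.248% lower. C1q was 265 CPM (257 to 274) in air and 222 CPM (215 to 229) in hyperoxia, a log2 ratio of -0.26 (-0.32 to -0.19), with interstitial macrophage-like cells at 1.52% (1.18 to 1.93) and 1.20% (0.909 to 1.55) of cells. Within those cells the log2 ratio was 0.03 (-0.04 to 0.09). Cfp was 35.6 and 41.2 CPM, a log2 ratio of 0.21 (0.05 to 0.38). C3 was 124 and 106 CPM, C5ar1 45.4 and 46.0 CPM, C3ar1 13 and 10.6 CPM, and Hc 400 and 435 CPM. The median of the 8 genes, which counts each C1q gene separately, was -0.23, against 0.01 over all genes. It is therefore not read as a shift of the complement genes as a set. The C1q ratio had opposite signs at pnd7 and pnd60, below 2-fold at both, and the difference between the ages was not tested.

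**Figure D4:**
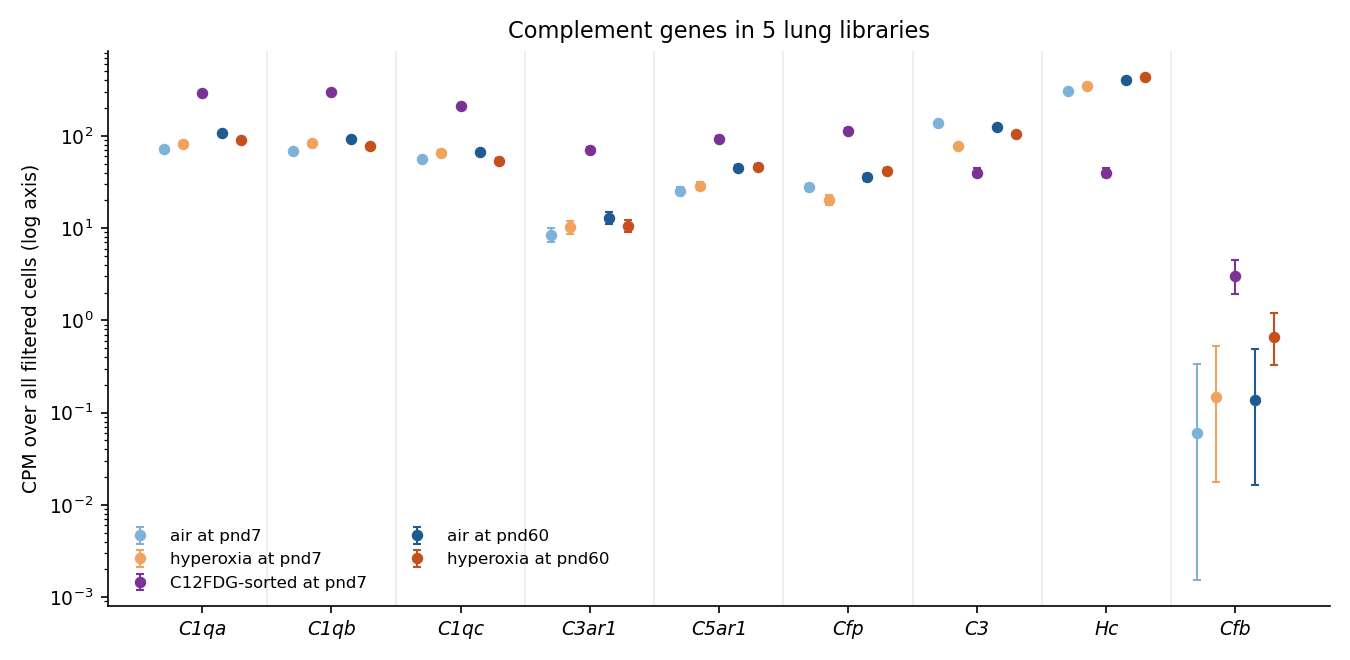
Level of each gene over all filtered cells (CPM, log axis), 1 point per library with its 95% Poisson interval. The sorted library was highest for C1qa, C1qb, C1qc, C3ar1, C5ar1, Cfb and Cfp and lowest for C3 and Hc, and the unsorted libraries lay closer to each other for all but Cfb.

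The sorted library stood apart from the unsorted ones. Against unsorted hyperoxia cells at pnd7, 6 of the 8 genes were higher, against 8.17% of 11340 genes, and 1 was lower, against 36.4%. The higher ones include the 3 C1q genes, which lay in the same cells. C1qa was 292 CPM in the sorted and 82.6 CPM in the unsorted library, a log2 ratio of 1.82 (1.72 to 1.92), and C1qb and C1qc had 1.85 and 1.69. C3ar1 was 70.3 and 10.2 CPM, a log2 ratio of 2.78 (2.51 to 3.06). Cfp was 113 and 20 CPM, a log2 ratio of 2.50 (2.30 to 2.70), and C5ar1 was 92.1 and 28.5 CPM, a log2 ratio of 1.69 (1.51 to 1.87). Hc was 40.0 and 346 CPM, a log2 ratio of -3.11 (-3.28 to -2.95). C3 was 40.1 and 77.2 CPM, a log2 ratio of -0.94 that was -0.07 (-0.27 to 0.13) without mesothelial-like cells, of which the sorted library had none. The median of the 8 genes was 1.76, against -0.55 over all genes.

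Against air at pnd7, the same 6 genes were higher in the sorted library, against 7.81% of 11851 genes, and C3 and Hc were lower, against 38.5%. The log2 ratios were 2.03 for C1qa, 2.14 for C1qb, 1.93 for C1qc, 3.06 for C3ar1, 1.87 for C5ar1 and 2.03 for Cfp. They were -2.93 for Hc and -1.78 for C3, the latter 0.12 (-0.08 to 0.32) without mesothelial-like cells. The median of the 8 genes was 1.98, against -0.59 over all genes. Both sorted comparisons share the sorted library. TMM (trimmed mean of M-values) scaling, which sets the bulk of genes equal, would add 0.52 and 0.50 to the log2 ratios against hyperoxia and air, with 15.4% and 14.7% of all genes then higher and 26.2% and 28.8% lower.

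The sorted library was mostly macrophage-like, and the part of this in its ratios over all cells was not tested. Alveolar macrophage-like cells were 84.2% (80.7 to 87.3) of sorted cells against 4.65% (3.55 to 5.98) of unsorted hyperoxia cells, interstitial macrophage-like cells 9.13% (6.74 to 12.0) against 1.36%, and type II-like cells 8 of 493 against 146 of 1246. The split of sorted cells between the macrophage-like classes depended on the clustering, as given below. Within classes fewer genes reached 2-fold. In interstitial macrophage-like cells, where 6 genes had enough counts, Cfp was higher, at 371 against 131 CPM, a log2 ratio of 1.5 (0.91 to 2.14), with 22.6% of genes in that class higher. No complement gene was lower there, against 8.53%. C3ar1 had a log2 ratio of 0.75 (0.41 to 1.10), C5ar1 of 0.15 (-0.23 to 0.56), and C1q of -0.61 (-0.68 to -0.55). The 4 sorted cells with the most Cfp counts held 173 of the 240 counts behind the Cfp value.

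In alveolar macrophage-like cells, with 7 genes, none was higher, against 3.99% of genes, and 3 were lower, against 13.9%. These were C5ar1 at 68.9 against 194 CPM, a log2 ratio of -1.5 (-1.75 to -1.24), C1qc with -1.43 (-1.91 to -0.93) and C3 with -1.08 (-1.45 to -0.70). The C1qc value rests on 1 unsorted cell, which held 47 of the 49 C1qc counts of its class. Cfp, at 95.8 against 100 CPM, had a log2 ratio of -0.07 (-0.39 to 0.26). The median of the 7 genes was -0.92, against -0.29 over all genes of the class. The middle gene was C1qa, so this median rests on the unsorted cell with the 47 C1qc counts. That cell held 161 of the 165 C1q counts of its class.

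These within-class values compare different clusters. Of the 415 sorted alveolar macrophage-like cells, 369 lay in a cluster led by Slc7a11, Hmox1, Mt1, Mt2 and Mmp12 that held 5 cells of the other libraries, and 46 lay in a dividing cluster. The unsorted alveolar macrophage-like cells lay mainly in a cluster led by Chil3, Krt79 and Cidec. All 45 sorted interstitial macrophage-like cells formed a cluster of their own, led by Ms4a7, Cxcl2, Ier3, Apoe and Cd14, and all unsorted ones lay in another, led by Fcrls, Ccl12 and Ms4a7. The sorted cluster had 7 of 13 interstitial macrophage markers raised and the unsorted one 10 of 13. The name of the sorted cells depended on the clustering. At Leiden resolution 1, 460 sorted cells lay in a cluster named alveolar macrophage and 0 in the interstitial one. After integration 43 sorted cells lay in the interstitial one. The sorted interstitial macrophage-like cells also carried 9826 CPM of type II markers, 8337 CPM of it Sftpc, against 318 CPM in unsorted hyperoxia cells. The paper took the unsorted libraries from its authors' earlier published dataset, as controls for the sorted one. With 1 sorted library, sorting, C12FDG activity, library and dataset cannot be told apart.

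**Figure D5:**
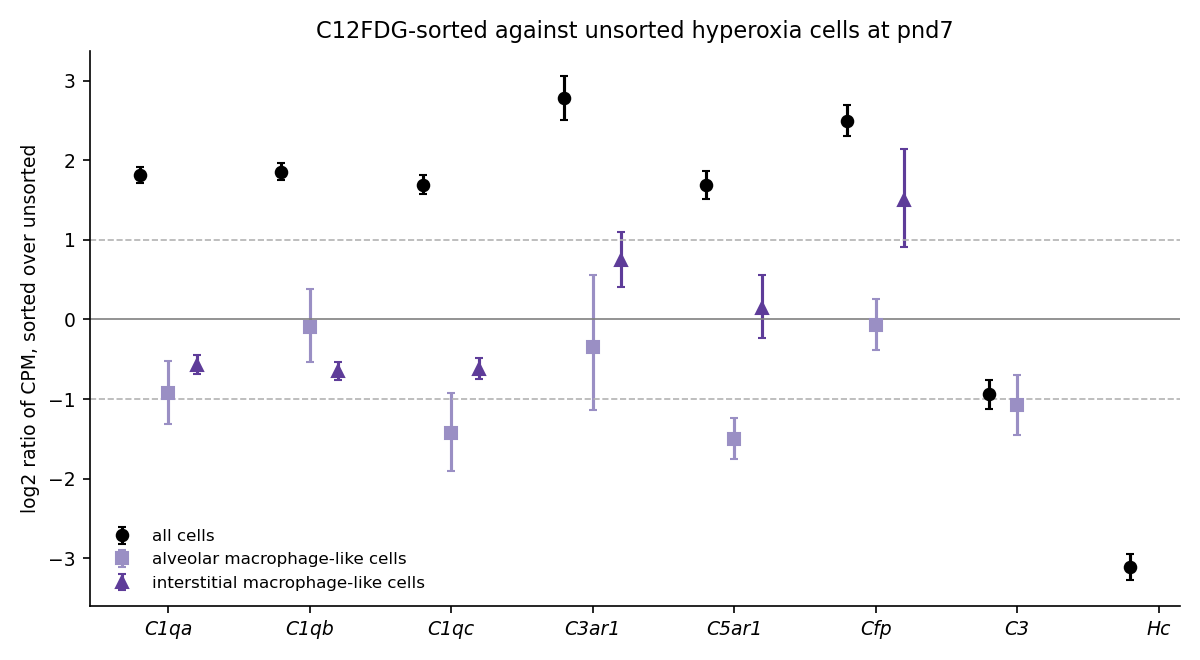
Log2 ratio of CPM in sorted over unsorted hyperoxia cells at pnd7 with its 95% interval, over all cells and within the alveolar and interstitial macrophage-like classes, for genes with at least 100 counts; dashed lines mark 2-fold. The 6 genes above the upper line over all cells were not above it in alveolar macrophage-like cells, and Cfp alone was above it in interstitial macrophage-like cells.

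Between the ages, C5ar1 had the greatest ratio in air and Cfp after hyperoxia. From pnd7 to pnd60 in air none of the 8 genes reached 2-fold, against 15.1% of 13003 genes higher and 9.35% lower. Over all deposited barcodes 6 of the 8 were higher in air and 4 after hyperoxia, against 42.7% and 46.1% of all genes. C5ar1 was 25.2 and 45.4 CPM, a log2 ratio of 0.85 (0.67 to 1.03), and C3ar1 was 8.41 and 13 CPM, a log2 ratio of 0.63 (0.31 to 0.96). C1q was 196 and 265 CPM, a log2 ratio of 0.44. The median of the 8 genes was 0.41, against 0.23 over all genes. C3 was 138 and 124 CPM over all cells, a log2 ratio of -0.15, and 36.9 and 109 CPM without mesothelial-like cells, a log2 ratio of 1.57 (1.44 to 1.71).

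After hyperoxia, Cfp was higher at pnd60 than at pnd7, at 41.2 against 20 CPM, a log2 ratio of 1.04 (0.84 to 1.25), with 19.1% of 12923 genes higher. No complement gene was lower, against 9.49%. The median of all genes was 0.29 in this comparison and that of the 8 genes 0.24, and TMM scaling, which shifted these ratios by -0.24 and those in air by -0.22, took Cfp under 2-fold. With it 13.1% of all genes were higher and 13.6% lower after hyperoxia, and 10.5% and 12.6% in air. C5ar1 was 28.5 and 46.0 CPM, a log2 ratio of 0.69. C3 was 77.2 and 106 CPM over all cells and 42.0 and 98.7 CPM without mesothelial-like cells, the latter a log2 ratio of 1.23 (1.09 to 1.37).

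Within classes, monocyte-like cells had C1q, C5ar1 and Cfp at lower CPM at pnd60 than at pnd7. C1q in them was 1419 CPM in air and 821 CPM in hyperoxia at pnd7 against 37.6 and 13.5 CPM at pnd60, but 3 and 1 cells held 746 of 747 and 335 of 341 of the pnd7 counts. C5ar1 in these cells had log2 ratios of -1.7 (-2.30 to -1.13) in air and -2.18 (-2.80 to -1.58) after hyperoxia, and Cfp of -1.96 (-2.41 to -1.54) and -1 (-1.43 to -0.56). In air at pnd7, 3 monocyte-like cells held 102 Cfp counts, and in hyperoxia at pnd7 1 held 35. The Cfp ratios rest partly on these few cells and were not recomputed without them. The monocyte-like cells of the ages lay mainly in different clusters. At pnd7, 78 of 84 air and 61 of 66 hyperoxia cells lay in a cluster named from nonclassical monocyte markers. At pnd60, 120 air and 144 hyperoxia cells lay in a cluster named from classical monocyte markers. Another 148 and 196 lay in a second nonclassical one, so these ratios compare different mixes of monocyte-like cells. In interstitial macrophage-like cells C1q had a log2 ratio of pnd60 over pnd7 of -0.07 (-0.15 to 0.02) in air and 0.14 (0.07 to 0.21) after hyperoxia. Cfp in the same cells had 1.06 (0.29 to 1.90) and 1.44 (0.79 to 2.14), from 17 and 26 counts at pnd7. C5ar1 in alveolar macrophage-like cells had 1.01 (0.76 to 1.25) and 0.77 (0.52 to 1.02). C1q in them had -3.27 (-3.78 to -2.80) in air, where 3 cells held 305 of its 309 counts at pnd7. Hc in type II-like cells had 0.48 (0.42 to 0.54) and 0.69 (0.63 to 0.75), and in type I-like cells -2.93 (-3.82 to -2.16) and -1.14 (-1.68 to -0.64). The type I-like cells of the ages lay in different clusters. Their type II marker levels, given above, were also lower at pnd60, and the part of these in the Hc ratios was not tested.

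The genes whose levels were most like those of each complement gene were sought among 11027 genes over 48 groups of a class and a library with at least 30 cells. The points share libraries and classes, so the correlations are descriptions. The minimum left out the interstitial macrophage-like cells of the unsorted pnd7 libraries, 14 in air and 17 in hyperoxia. It kept groups whose C1q lay in few cells, such as T or NK cell-like cells of air at pnd7. In that group 2 cells held 279 of 281 C1q counts. C1q was most like Ccl7 (Pearson r = 0.86), Ccl2 (0.86) and Ms4a7 (0.85), and C3ar1 most like Ccl7 (0.94), Hpgds (0.94) and Ms4a7 (0.93). C5ar1 was most like Fcgr3 (0.93), which encodes an immunoglobulin receptor of myeloid cells, and Cfp most like Man2b1 (0.92), a lysosomal mannosidase. Hc was most like Lamp3 (0.99), Sftpd (0.98) and Sftpa1 (0.98), genes of lamellar bodies and surfactant in type II cells. Lamp3, Sftpd and Sftpa1 are among the type II markers, and Ms4a7 among the interstitial macrophage markers, that named the classes. These matches are therefore not independent of the class names. C3 had no close match, with Fgd4 first at 0.74, and Cfb, with few counts, reached 0.54 with Srxn1.

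The other complement genes, 50 in a list ordered by role, were mostly low or came from other cells. Over all cells of the 5 libraries, 7 had 0 counts, among them C2, C4a, C8a and C9. The C1q-associated proteases C1ra and C1s1 were led by fibroblast-like cells, which held 60.9% and 75.7% of their counts. Of the terminal genes, C7 was led by fibroblast-like cells (90.1%) and C6 by type II-like cells (78.7%). The fluid regulator Serping1 was led by fibroblast-like cells (77.4%), the membrane regulators Cr2 and Cd55 by B cell-like cells (91.1% and 62.8%), and the integrin receptor chain Itgax by alveolar macrophage-like cells (72.3%).

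The share of all genes past 2-fold is given in brackets after each count. Of this list, none was higher (0.183%) and 2 of 24 with enough counts were lower (0.802%) in hyperoxia than in air at pnd7. The lectin Fcna was 6.41 CPM in hyperoxia and 29.1 CPM in air, a log2 ratio of -2.18 (-2.53 to -1.85), and Csmd1 had -1.38. None of 24 was higher (0.271%) or lower (0.248%) at pnd60. In the sorted library against unsorted hyperoxia, 5 of 22 were higher (8.17%), with Itgb2 at 2.48, Itgax at 2.44, Fcna at 1.78, C1qbp at 1.61 and Lrp1 at 1.20 on the log2 scale, and 10 were lower (36.4%), among them Serping1 at -4.73 and C1s1 at -4.10. Against air, 4 of 23 were higher (7.81%) and 12 lower (38.5%) in the sorted library. From pnd7 to pnd60 in air, 9 of 25 were higher (15.1%) and 4 lower (9.35%), and after hyperoxia 12 of 23 were higher (19.1%) and 2 lower (9.49%). C1s1 (1.57 and 1.91), C7 (2.13 and 1.64), Cd55 (2.22 and 2.79) and Cr2 (5.09 and 4.89) were higher at pnd60 in both, and C1qbp was lower in both (-1.99 and -2.04). B cell-like cells, which led Cr2 and Cd55, numbered 32 and 16 at pnd7 and 1225 and 1256 at pnd60.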

How the data were processed

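Lung cells of 5 libraries, 1 per condition, were profiled by scRNA-seq (10x Chromium 3′ v3.1). The authors deposited UMI counts per gene and barcode as 1 matrix per library. Per the labels the reads were processed with Cell Ranger on mm10, and Seurat 3.2.1 was used later; the matrix headers give software version 3.1.0. The annotation version is not given in the sources used here. From these counts, cells with over 700 and under 8000 genes and under 5% mitochondrial counts were kept (13200 cells). All libraries were clustered together without complement genes (scanpy 1.11.5; 3000 variable genes, 50 components, 20 neighbours, Leiden resolution 2), which gave 52 clusters, 10 of them unnamed. Clusters were named from fixed marker lists, with at least 3 markers raised 2-fold, a threshold set after the clusters were seen. Doublets were not removed; Scrublet marked 0.0433% to 3.28% of cells per library, with an automatic threshold that was unstable in the sorted library, and leaving them out was an alternative. Counts were summed per library and class as CPM with exact Poisson intervals, shares were given exact binomial intervals (Clopper-Pearson), and log2 ratios exact conditional binomial intervals, with 3 counts standing in for 0. A call needed 2-fold and at least 100 counts. The genes named were the 9 listed ones and, of 50 other complement genes, those with at least 100 counts and past 2-fold in a comparison; some genes with 0 counts are also named. Likeness was Pearson's r of log2(CPM + 10). The ratio computation was tested on simulated data. The members and gene lists were chosen with earlier results of these data known. Alternatives were all deposited barcodes, other filters, TMM scaling (edgeR 4.0.16), other clusterings and thinning to 1000 counts per cell. Some genes of these lists are not reported here.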

Additional observations from a re-analysis of the deposited data

How the results depend on the processing

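No paired analysis was possible because no group held more than 1 library. Leaving out a replicate was for the same reason not run. Of the values recomputed, 128 stayed the same by the rule used and 63 moved, some of them across 0 from a value below 2-fold. For medians, ratios and shares, the same meant within the interval of the main value. Counts of genes past 2-fold have no interval, and for them it meant an equal or similar count. Such counts made up 35 (higher) and 41 (lower) of the 128. The cause of the moves was not tested. Only 1 value turned from past 2-fold to the other sign. It was C3 in the sorted cells against air, with mesothelial-like cells left out. The median log2 ratio of the complement genes moved as follows. Over all deposited barcodes it was 2.67 for the sorted cells against unsorted hyperoxia, 2.74 against air, 1.07 for pnd60 against pnd7 in air and 0.97 after hyperoxia. With TMM scaling the same comparisons gave 2.28, 2.47, 0.19 and -0.01. In cells thinned to 1000 counts it was 0.38 for hyperoxia against air at pnd7, 2.58 for the sorted cells against air, 0.29 for the ages in air and -0.12 after hyperoxia. Counts of genes past 2-fold moved less often. The share of all genes is in brackets. Over all barcodes 1 gene was lower in the sorted cells against air (27.5%). Over the same barcodes, 6 were higher at pnd60 in air (42.7%) and 4 after hyperoxia (46.1%). After hyperoxia 0 were higher at pnd60 with TMM scaling (13.1%) and 0 in thinned cells (19.3%), against 1 in thinned cells in air (18.6%). With a minimum of 10 counts, 1 gene was higher in hyperoxia at pnd60 (2.58%) and 2 were higher at pnd60 after hyperoxia (22.6%). The gene that this minimum added was Cfb, with 11 counts in hyperoxia and 2 in air at pnd60, and 2 in hyperoxia at pnd7.

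The share of C1q counts in macrophage-like cells depended on the classes. In air at pnd7 it was 81.4% at Leiden resolution 1, 80.9% after SCTransform and integration, 90.7% with each cell classed by its own markers and 66.7% in thinned cells. In hyperoxia at pnd7 these settings gave 99.5%, 99.4%, 86.0% and 92.7%. In the sorted cells integration gave 91%, own markers 98.7% and thinning 99.8%. At pnd60 in air they gave 93.9%, 85.5% and 95.9%, and in hyperoxia own markers gave 84.5%, leaving out Scrublet doublets 97.5% and thinning 96.0%.

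The log2 ratio of C1q CPM in alveolar and interstitial macrophage-like cells combined was 0.78 for hyperoxia against air at pnd7, and 0.54 at resolution 1 and 0.08 by own markers. At pnd60 it was -0.14, and -0.23 after integration and -0.23 in thinned cells. For resolution 1, integration, own markers and thinning in turn, it was -1.68, -0.68, -1.37 and -1.91 for the sorted against unsorted hyperoxia cells, beside -1.56. Against air it was -1.14, 0.15, -1.29 and -1.16, beside -0.77. With doublets left out placed before thinning in that order, it was for the ages in air 0.14, 0.30, -0.57, 0.66 and 0.91, beside 0.50, and after hyperoxia -0.54, -0.75, -0.83, -0.33 and -0.07, beside -0.42. Its sign therefore depended on the classes for the sorted cells against air and for the ages in air. The combined ratio also holds the mix of both classes. Interstitial macrophage-like cells numbered 14 beside 84 alveolar ones in air at pnd7, 17 beside 58 in hyperoxia and 45 beside 415 in the sorted library. Taken alone, each class had lower C1q CPM in hyperoxia than in air at pnd7.

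Leaving out mesothelial-like cells, an alternative chosen after seeing the data, gave C3 log2 ratios of 0.19 for hyperoxia against air at pnd7, -0.07 for the sorted against unsorted hyperoxia cells, 0.12 against air where it was -1.78 over all cells, and 1.57 and 1.23 for pnd60 against pnd7 in air and after hyperoxia. Leaving erythroid-like cells out of the share of interstitial macrophage-like cells was also chosen after seeing the data.

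With 1 library per condition the intervals cover counting error only and hold nothing of the spread between animals. At pnd7 C1q rested on 24 and 19 cells and C3 on 14 and 7 mesothelial-like cells, so single cells can move these values. Cfb had at most 24 counts in a library, too few for a ratio.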
